A study of Homo sapiens and Mus musculus with 213 samples.

Results

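The intermediate filament genes of neural and simple epithelial cells were followed in RNA-seq of the HEK293T G-quadruplex (G4) lines. These are 10 of the 58336 genes listed in the processed tables, taken by their GENCODE symbols: the neurofilament subunits NEFL, NEFM and NEFH, alpha-internexin (INA), peripherin (PRPH), nestin (NES), the astrocyte filament GFAP, and the simple epithelial keratins KRT8, KRT18 and KRT19. HEK293T is an immortalized human embryonic kidney line. Cells labelled HEK293T keep the natural MYC promoter (MYC WT). MYC MUT cells (HEK293T_MutMYCG4) carry point mutations in the G-runs of the MYC promoter so that the G4 cannot fold, and in the third line, SWP, the MYC G4 was exchanged for the G4 motif of another gene. There were 3 libraries per line, with no treatment. Both edited lines were grown from sorted single cells and were homozygous. The sources used here do not say which clones were sequenced. A sequencing pool tag stands in the column names of the MYC WT values and in none of the edited lines, so line and pool cannot be told apart in comparisons with MYC WT.

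Intermediate filaments are rope-like polymers built from coiled-coil proteins, and the subunits a cell uses depend on its type. NEFL is the core subunit of neuronal filaments, on which NEFM and NEFH co-assemble to set the calibre of axons, while INA is used in central and PRPH in peripheral neurons. NES marks neural progenitors and co-assembles with vimentin (VIM), and GFAP marks astrocytes. Keratins form obligate pairs of a type II and a type I chain. KRT8 pairs with KRT18, or with KRT19, in single-layered epithelia such as kidney tubules.

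The bases just upstream of the start sites of NES, INA and PRPH are given because these members changed between lines and differ in promoter make-up. RefSeq promoters (GRCh38.p14) matched 4 of the 10 members. Capitals mark a GC box, GGGCGG on either strand, the recognition motif of SP1-like factors, or a TATA box, TATAAA on either strand. Each line is 250 bases, 5′ to 3′ on the strand of the gene, ending at position -1, for NES at chr1:156677408-156677657 on the minus strand, INA at chr10:103276888-103277137 on the plus strand and PRPH at chr12:49294897-49295146 on the plus strand.
NES: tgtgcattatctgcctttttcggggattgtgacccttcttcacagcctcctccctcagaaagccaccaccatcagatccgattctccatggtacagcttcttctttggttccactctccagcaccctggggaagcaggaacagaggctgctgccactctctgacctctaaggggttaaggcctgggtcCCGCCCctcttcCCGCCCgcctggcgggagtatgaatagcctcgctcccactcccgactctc
INA: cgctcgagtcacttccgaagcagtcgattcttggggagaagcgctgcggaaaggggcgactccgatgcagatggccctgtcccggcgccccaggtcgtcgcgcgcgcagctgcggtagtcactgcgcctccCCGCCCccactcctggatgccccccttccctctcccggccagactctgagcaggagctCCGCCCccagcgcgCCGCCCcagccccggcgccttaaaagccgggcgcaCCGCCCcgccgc
PRPH: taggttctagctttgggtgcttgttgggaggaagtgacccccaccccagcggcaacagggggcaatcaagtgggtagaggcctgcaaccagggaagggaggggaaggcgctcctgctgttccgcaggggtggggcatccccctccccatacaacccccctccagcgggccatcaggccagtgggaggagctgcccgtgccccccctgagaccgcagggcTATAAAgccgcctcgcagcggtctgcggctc
NES had 2 GC boxes, starting at -62 and -50. INA had 4, starting at -119, -61, -47 and -12, in a window of 72.8% G and C. PRPH had no GC box but a TATA box starting at -31. The window of KRT8, at chr12:52926470-52926719, had neither, and it lies inside the longer GENCODE model of that gene. None of these 4 windows held the E box CACGTG, the motif of MYC and MAX dimers. Over all 35116 promoter windows of this length, a GC box was present in 42.6%, a TATA box in 10.7% and this E box in 6.34%. These matches describe the letters and not the binding of a factor.

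Libraries held 65024354 to 98497026 reads on genes. The deposited values are read counts divided by a size factor for each library, called normalized counts here. The 20884 genes with a mean of at least 10 normalized counts entered a limma fit on the scale log2(normalized count + 1), on which all log2 fold changes are given and which understates changes of low genes. A gene was called where the Benjamini-Hochberg adjusted p was below 0.05 and the log2 fold change exceeded 0.5 either way. MYC itself, the edited gene, had 20020, 28396 and 21580 normalized counts in MYC WT. It had 10693, 11176 and 12400 in MYC MUT, all below MYC WT, and 14480, 24743 and 25245 in SWP, which overlapped MYC WT. The log2 fold change in MYC MUT against MYC WT was -1.02 ± 0.19 (SE, limma adjusted p = 0.00182). Replicate 1 of MYC WT and of SWP lay farthest from the others of their line, with a chi-square per degree of freedom of 41.9 to 60.2 against 13.2 to 26.6 between the other libraries of those lines.

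Most of the filament genes differed between the lines, and they did not all move the same way. In MYC MUT, NEFL, PRPH, NES and KRT8 were higher and NEFM and GFAP lower than in MYC WT. In SWP, INA was higher and NEFL, NES and KRT8 lower than in MYC WT. Of the 8 members that passed the minimum, 4 were called higher and 2 lower in MYC MUT against MYC WT, where 11.3% of all tested genes were called higher and 10.1% lower. In SWP against MYC WT, 1 was called higher and 3 lower, beside 2.15% and 2.98% of all tested genes. In MYC MUT against SWP, 5 were called higher and 1 lower, beside 12.3% and 8.31%. The median log2 fold change over these 8 was 0.58, -0.50 and 0.95 in this order of comparisons, and over all tested genes -0.0034, -0.055 and 0.044. With libraries scaled to equal upper quartiles, 65.4% of the calls in MYC MUT against MYC WT were higher in place of 52.8%, and 72.0% in MYC MUT against SWP in place of 59.7%, with a median of all genes of 0.13 in the latter. In SWP against MYC WT, 450 genes were called higher and 622 lower, but 556 and 525 with equal totals, 574 and 536 with edgeR and 607 and 569 with DESeq2. The comparisons share libraries, so their values are given side by side and are not independent. In bulk RNA, fewer cells with a transcript and less of it per cell cannot be told apart.

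**Figure D1:**
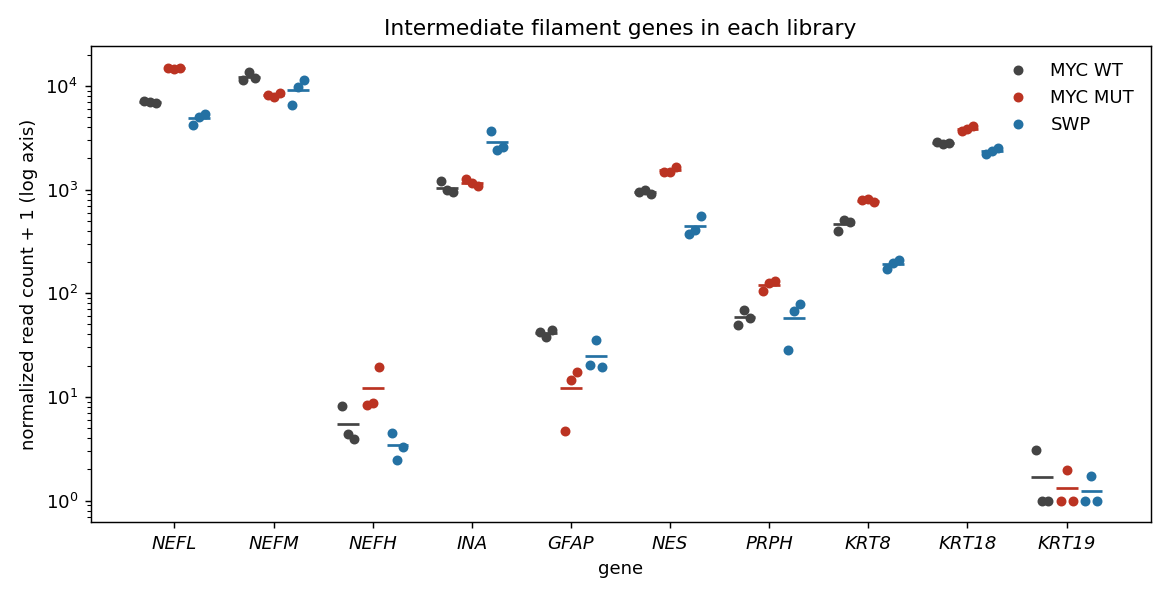
Normalized read count plus 1 (log axis) of each of the 10 genes in every library, with a bar at the mean of each line plus 1. NEFL, NES and KRT8 are highest in all 3 MYC MUT libraries and lowest in all 3 SWP libraries, INA is highest in SWP, and NEFH and KRT19 lie near the bottom of the axis.

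NEFL, the core neurofilament subunit, separated the 3 lines without overlap. It had 7135, 7041 and 6867 normalized counts in MYC WT, 14992, 14389 and 14955 in MYC MUT, and 4181, 4953 and 5391 in SWP. MYC MUT was 2.11-fold MYC WT, with a log2 fold change of 1.07 ± 0.08 (SE, limma adjusted p = 5.75e-06). SWP was 69.0% of MYC WT, a log2 fold change of -0.54 ± 0.08 (SE, limma adjusted p = 0.00219). That fall was close to the threshold on fold: it was -0.44 without replicate 1 of SWP and -0.43 without replicate 1 of every line, both under the 0.5 needed for a call. Between MYC MUT and SWP the difference in NEFL was 1.62 ± 0.08 (SE, limma adjusted p = 1.95e-07).

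NEFM, the medium subunit, was lower in MYC MUT. It had 11447, 13536 and 11906 normalized counts in MYC WT, 8079, 7852 and 8615 in MYC MUT, and 6552, 9683 and 11255 in SWP. No MYC MUT library reached the lowest MYC WT library, and the SWP libraries were spread over the range from below MYC MUT to just below MYC WT. The log2 fold change of NEFM was -0.58 ± 0.16 in MYC MUT (SE, limma adjusted p = 0.0127) and -0.46 ± 0.16 in SWP (SE, limma adjusted p = 0.0973). Without replicate 3 of SWP the latter was -0.62 and passed (limma adjusted p = 0.0298). With the replicate number as a block it stayed at -0.46, under the fold needed, with a limma adjusted p of 0.018. NEFM did not pass between MYC MUT and SWP, at -0.13 with a 95% interval of -0.47 to 0.22.

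NEFH, the heavy subunit, was barely detected. It had 3 to 7 reads in the MYC WT libraries, 8 to 19 in MYC MUT and 2 to 3 in SWP, and so did not pass the minimum mean. With all genes that had any read, its log2 fold change in MYC MUT against MYC WT was 1.12 ± 0.46 (SE, limma adjusted p = 0.113), and in MYC MUT against SWP it passed at 1.77 ± 0.46 (SE, limma adjusted p = 0.0156), a fold that depends on the pseudocount at so few reads. Against SWP, the 35 reads of MYC MUT and the 7 of SWP gave a ratio of 4.92 with an exact 95% interval of 2.15 to 13.1, which covers counting error only.

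INA, the alpha-internexin that assembles with the neurofilament triplet, was the member that rose in SWP. It had 1196, 978 and 955 normalized counts in MYC WT, 1253, 1146 and 1078 in MYC MUT, and 3648, 2383 and 2560 in SWP. All 3 SWP libraries lay above the other 6, and those of MYC WT and MYC MUT overlapped. The log2 fold change was 1.44 ± 0.15 in SWP against MYC WT (SE, limma adjusted p = 0.000127), a 2.75-fold difference of means. Without replicate 1 of SWP, the highest library, it was 1.25. In MYC MUT against MYC WT it was 0.16 with a 95% interval of -0.17 to 0.48 (limma adjusted p = 0.435).

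The make-up of the neurofilament RNA differed between the lines in which subunit dominated. With counts divided by exon length in kb, NEFL made up 32.5% ± 1.64 (SD, n = 3) of the summed NEFL, NEFM, NEFH and INA level in MYC WT, 59.0% ± 0.52 in MYC MUT and 26.6% ± 0.48 in SWP. NEFM was the largest share in MYC WT, at 61.6% ± 2.49, and in SWP, at 53.8% ± 7.48, but not in MYC MUT, at 35.4% ± 0.95. INA held 5.87% ± 0.91 in MYC WT, 5.61% ± 0.46 in MYC MUT and 19.6% ± 7.39 in SWP, where its share ranged from 15.0% to 28.1%. The per-kb ratio of NEFL to NEFM was 0.53 ± 0.048 in MYC WT, 1.67 ± 0.059 in MYC MUT and 0.50 ± 0.078 in SWP (SD, n = 3). The MYC MUT libraries lay apart from all others in this ratio, and the other lines overlapped.

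**Figure D2:**
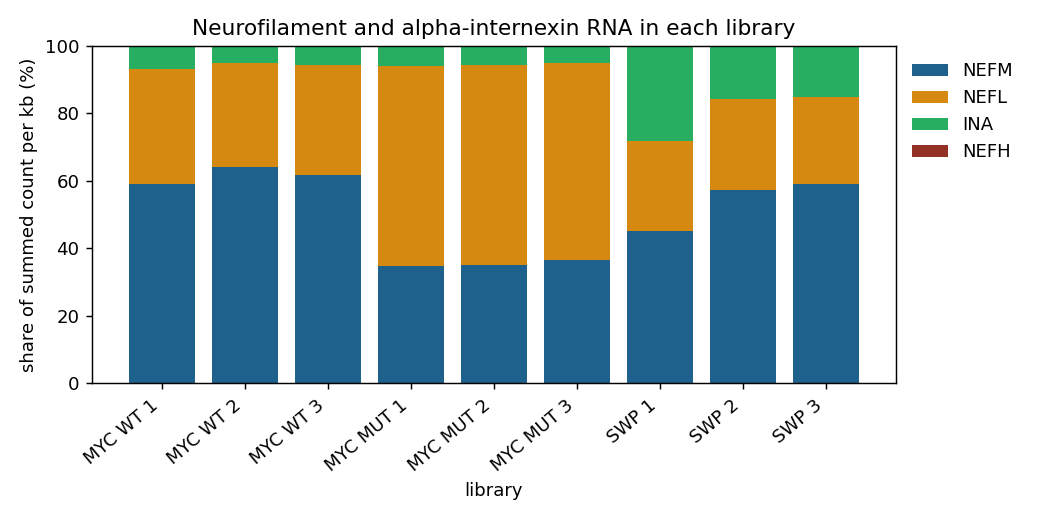
Share (%) of NEFM, NEFL, INA and NEFH in their summed normalized count per kb of exon, stacked for each of the 9 libraries. NEFL holds 58.4% to 59.3% in the MYC MUT libraries and at most 34.0% in the others, INA is largest in SWP replicate 1 at 28.1%, and NEFH is too small to see.

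PRPH, the filament of peripheral neurons, was low and higher in MYC MUT. It had 48.2, 68.5 and 56.8 normalized counts in MYC WT, 104, 123 and 131 in MYC MUT, and 27.5, 66.1 and 77.3 in SWP. The MYC MUT libraries lay above all others, whereas SWP spread around MYC WT, its replicate 1 being the lowest. The log2 fold change was 1.04 ± 0.32 in MYC MUT against MYC WT (SE, limma adjusted p = 0.025) and 1.18 ± 0.32 against SWP (SE, limma adjusted p = 0.0142). The former no longer passed without replicate 1 or 3 of MYC WT (limma adjusted p = 0.0611 and 0.068) or without replicate 2 or 3 of MYC MUT (0.0706 and 0.0794), and the latter without replicate 3 of MYC MUT (0.0509). Between SWP and MYC WT, PRPH differed by -0.13 with a 95% interval of -0.84 to 0.58.

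NES, the progenitor filament, followed the same order of lines as NEFL. It had 941, 998 and 912 normalized counts in MYC WT, 1483, 1482 and 1635 in MYC MUT, and 373, 410 and 551 in SWP. The 3 lines did not overlap. NES was 1.61-fold MYC WT in MYC MUT, or 0.69 ± 0.13 on the log2 scale (SE, limma adjusted p = 0.00163), and 46.8% of MYC WT in SWP, a log2 fold change of -1.11 ± 0.13 (SE, limma adjusted p = 0.000282). VIM, the filament protein with which NES assembles, was not called in any comparison, with means of 58968 ± 4826, 57849 ± 5431 and 53004 ± 2028 normalized counts (SD, n = 3) in MYC WT, MYC MUT and SWP. Per kb, the level of NES was 1.45% to 1.57% of that of VIM in the MYC WT libraries, 2.19% to 2.64% in MYC MUT and 0.67% to 0.93% in SWP.

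GFAP, the astrocyte filament, was detected at a low level and was lowest in MYC MUT. It had 41.0, 37.0 and 43.3 normalized counts in MYC WT, 3.70, 13.6 and 16.6 in MYC MUT, which were 4, 14 and 17 reads, and 19.5, 34.2 and 18.5 in SWP. The lines did not overlap, with SWP in between. Only the difference of MYC MUT from MYC WT passed, at a log2 fold change of -1.96 ± 0.44 (SE, limma adjusted p = 0.00497). That value kept its call but shrank to -1.37 without replicate 1 of MYC MUT, the library with 4 reads, to -1.36 without replicate 1 of every line and to -1.30 with a pseudocount of 10. SWP differed from MYC WT by -0.78 ± 0.44 (SE, limma adjusted p = 0.327). MYC MUT differed from SWP by -1.18 ± 0.44 (SE, limma adjusted p = 0.0554), and with the replicate number as a block this difference passed (limma adjusted p = 0.0214), as it did with edgeR (0.0429), with DESeq2 (0.0412), with a pseudocount of 10 (0.0475) and without replicate 3 of MYC MUT (0.0285). It was -0.59 without replicate 1 of MYC MUT (limma adjusted p = 0.176) and -0.91 without replicate 2 of SWP (0.187), and over all alternatives the adjusted p ranged from 0.0214 to 0.187.

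KRT8, the type II keratin of simple epithelia, had the widest range of line means as counted, 2.04 on the log2 scale, which falls to 1.02, below those of GFAP, NES, NEFL, INA and PRPH, once reads on its pseudogenes are added. It had 400, 504 and 481 normalized counts in MYC WT, 788, 804 and 755 in MYC MUT, and 172, 192 and 206 in SWP. The lines did not overlap, and the spread within each was small beside the differences. The log2 fold change was 0.77 ± 0.12 in MYC MUT (SE, limma adjusted p = 0.000413) and -1.27 ± 0.12 in SWP (SE, limma adjusted p = 4.80e-05), and MYC MUT exceeded SWP by 2.04 ± 0.12 (SE, limma adjusted p = 3.24e-07).

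KRT18, its type I partner, moved less. It had 2861, 2721 and 2788 normalized counts in MYC WT, 3637, 3821 and 4112 in MYC MUT, and 2217, 2326 and 2504 in SWP, again with no overlap between lines. The log2 fold change in MYC MUT was 0.47 ± 0.07 (SE, limma adjusted p = 0.000524), just under the fold needed for a call. It passed that fold without replicate 1 of MYC MUT (0.51), without replicate 1 of every line (0.53), and with libraries scaled to equal totals (0.54) or to equal upper quartiles (0.55). In SWP it was -0.25 ± 0.07 (SE, limma adjusted p = 0.054). There the limma adjusted p was 0.0141 with the replicate number as a block and 0.0481 with a minimum mean of 50, but the fold was too small for a call. MYC MUT exceeded SWP by 0.72 ± 0.07 (SE, limma adjusted p = 2.41e-05). Per kb, the ratio of KRT18 to KRT8 was 13.7 ± 2.07 in MYC WT, 11.1 ± 1.00 in MYC MUT and 27.7 ± 1.03 in SWP (SD, n = 3), and SWP lay apart from the other lines in it. KRT19, the other type I keratin, had at most 2 reads in any library, 0 in 6 of the 9, so that no fold is given.

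Both keratins have many processed pseudogenes, intronless copies to which an aligner that does not span introns can assign reads, so their values are uncertain. Of 51 loci named as KRT8 pseudogenes, 34 had reads, and together they held 482 ± 14.5 normalized counts in MYC WT, 528 ± 35.0 in MYC MUT and 454 ± 14.0 in SWP (SD, n = 3). This was 51.2%, 40.3% and 70.5% of the sum of KRT8 and its copies. KRT8P12 held most of it, with 323 ± 19.5, 330 ± 14.4 and 347 ± 15.8 (SD, n = 3). With the pseudogene reads added to KRT8, the log2 fold changes shrank to 0.47 in MYC MUT (limma adjusted p = 0.00087), under the fold needed for a call, and -0.55 in SWP (0.00134), and MYC MUT exceeded SWP by 1.02. The per-kb ratio of KRT18 to KRT8, each with its pseudogene reads, was 7.05 ± 0.51 in MYC WT, 7.10 ± 0.57 in MYC MUT and 8.77 ± 0.17 in SWP (SD, n = 3), so that the gap of SWP was much smaller than without them. For KRT18, 52 of 67 such loci had reads and held 5.78%, 6.93% and 6.90% of the sum in MYC WT, MYC MUT and SWP. The locus with most reads, KRT18P59, had 16.7 ± 5.67, 64.0 ± 4.23 and 26.0 ± 13.3 (SD, n = 3). Of 5 KRT19 copies only KRT19P2 had reads, with a mean of at most 2.22 normalized counts in a line.

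**Figure D3:**
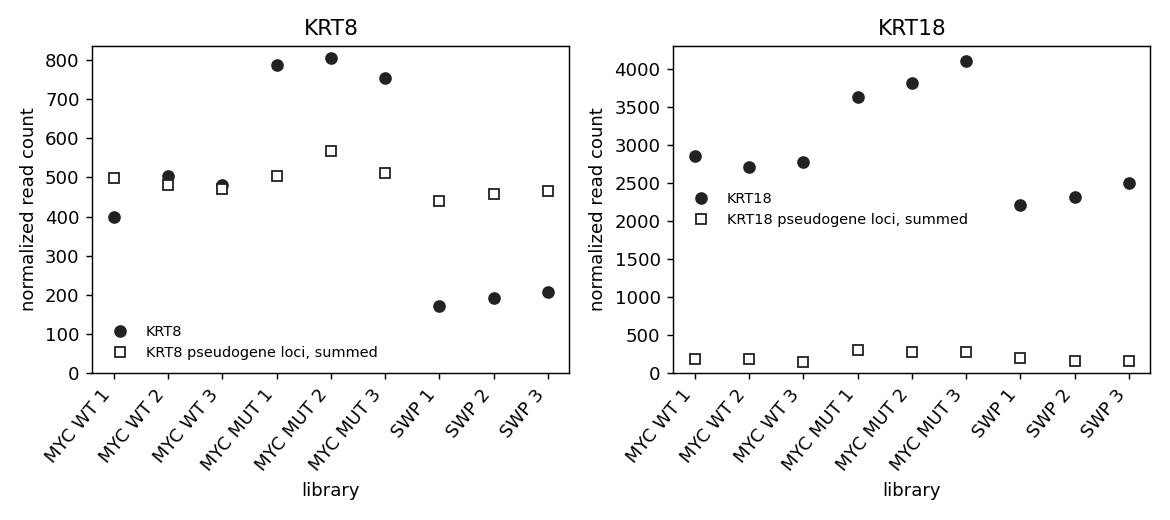
Normalized read counts (linear axes) of KRT8 and KRT18 (filled circles) and the sum over their pseudogene loci (open squares) in each of the 9 libraries. The KRT8 pseudogene sum stays between 439 and 568 while KRT8 runs from 172 to 804, and the KRT18 pseudogene sum is at most 304.

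Each pair of lines gave the smallest two-sided p that an exact permutation test allows with 3 against 3, 0.1, where the libraries did not overlap. Replicates are labelled as biological, but no source used here says whether they came from separate cultures, so the p-values measure the spread between these samples. The fold change plot sets the limma values side by side.

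**Figure D4:**
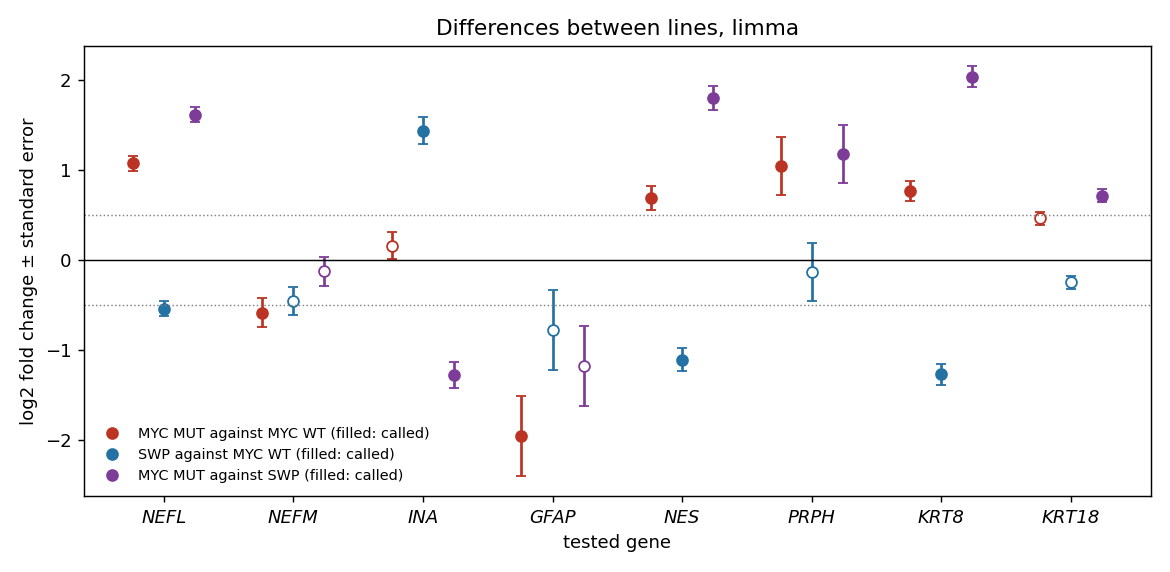
Log2 fold change ± standard error (limma) of the 8 tested genes in the comparisons of MYC MUT and of SWP with MYC WT and of MYC MUT with SWP, with dotted lines at the fold threshold of 0.5 either way and filled points for called genes. NEFL, NES and KRT8 lie above 0 in MYC MUT and below 0 in SWP, and INA lies at 1.44 in SWP.

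Ranked by level per kb of exon, NEFM led in MYC WT with 3383 ± 302 normalized counts per kb (SD, n = 3), followed by NEFL with 1780 ± 34.6 and KRT18 with 909 ± 22.8. INA (321), NES (171), KRT8 (67.1), PRPH (22.1) and GFAP (3.60) followed, each apart from its neighbours in every library, and NEFH and KRT19 were not separated at the bottom. In MYC MUT, NEFL led with 3751 ± 85.8 before NEFM with 2251 ± 108, and NEFH lay above GFAP. The order of NEFH and GFAP there rests on few reads and on their exon lengths of 3795 and 11229 bases. Before that division their means were 11.2 and 11.3 normalized counts. In SWP, NEFM led with 2521 ± 659, and NEFL (1229), INA (881) and KRT18 (765) formed a run in which neighbours overlapped, as did KRT8 (27.6) and PRPH (21.8). KRT8 is ranked here over 6881 exon bases and without its pseudogene reads. Those held 51.2%, 40.3% and 70.5% of the sum in MYC WT, MYC MUT and SWP, so its place beside NES and PRPH is uncertain. The 10 genes summed to 6658 ± 280 per kb in MYC WT, 8054 ± 228 in MYC MUT and 5528 ± 708 in SWP (SD, n = 3). VIM alone had 11393 ± 932, 11176 ± 1049 and 10240 ± 392.

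Chromosomal context differed among the members. NEFL (chr8:24950955-24956721, minus strand) and NEFM (chr8:24913758-24919098, plus strand) are neighbours, and the tested genes within 5 Mb of them had a raised median in MYC MUT, 0.34 on the log2 scale over 78 genes for NEFL and over 79 for NEFM. NEFL lay above the quartile range of these genes, which was 0.12 to 0.70, and NEFM, at -0.58, below its range of 0.13 to 0.73. The genes around INA (chr10:103277138-103290346) had a median of -0.24 in MYC MUT. For NES (chr1:156668763-156677407), PRPH (chr12:49295147-49298686), KRT8 (chr12:52897187-52949954), KRT18 (chr12:52948871-52952906) and GFAP (chr17:44903159-44916937) the medians lay between -0.09 and 0.07. In SWP the medians around all 8 tested members lay between -0.21, around GFAP, and -0.06, around INA. Whether copy number plays a part in these values was not tested.

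**Figure D5:**
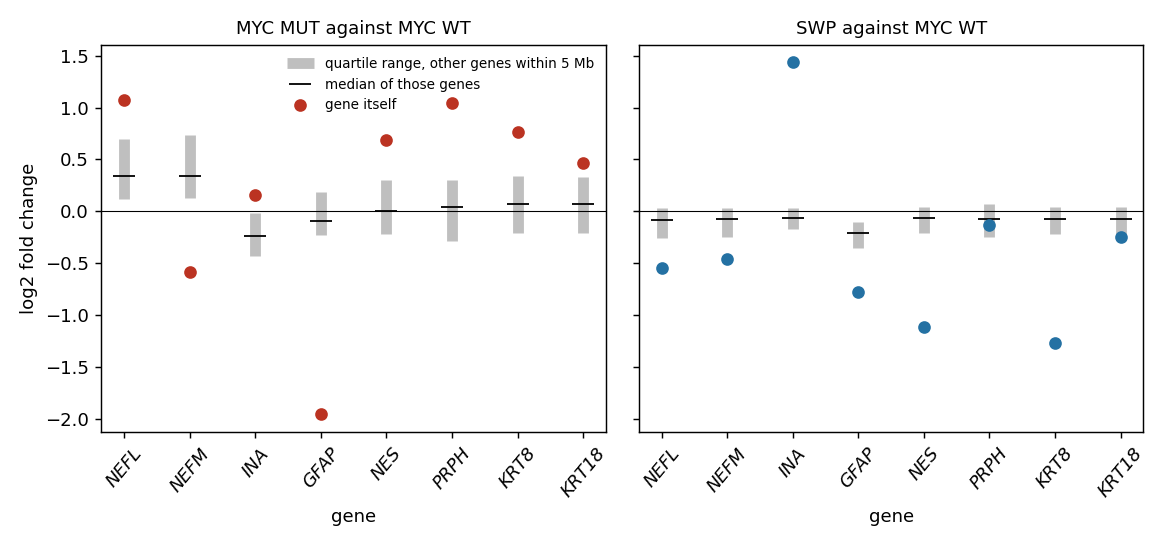
Log2 fold change of each tested gene (point) beside the median (line) and quartile range (grey bar) of the other tested genes within 5 Mb, for MYC MUT and for SWP against MYC WT. The genes around NEFL and NEFM have a median of 0.34 in MYC MUT, where NEFL lies above and NEFM below the grey bar, and INA lies far above its bar in SWP.

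Several members share exon bases with a gene on the opposite strand, and the counting is not stated to use strand, so that reads of such partners cannot be told apart. TROAP-AS1, an antisense transcript, covers 71.5% of the exon bases of PRPH. It had 38.2 ± 17.3 normalized counts in MYC WT, 148 ± 15.8 in MYC MUT and 63.0 ± 22.1 in SWP (SD, n = 3), and was higher in MYC MUT by 2.02 on the log2 scale (limma adjusted p = 0.000557), as PRPH was. A long non-coding RNA, ENSG00000272157, shares 19.8% of the exon bases of NEFL. Its level was 37.0 ± 3.38, 108 ± 16.5 and 33.7 ± 6.64 in the 3 lines (SD, n = 3), far below that of NEFL. ENSG00000272163 shares 26.4% of the exon bases of NEFM and had 472 ± 61.2, 524 ± 34.2 and 624 ± 66.5 (SD, n = 3), with no call in any comparison. NT5C2, with a mean of 3860, shares 13.9% of INA and was not called either. CCDC103 and FAM187A share 19.9% and 17.4% of GFAP, with means of 5.23 and 0. KRT8 and KRT18 share 525 exon bases with each other, head to head on chromosome 12. NES and KRT19 share none with another gene.

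Of the other intermediate filament genes, SYNM, DES and KRT222 were called in at least 1 comparison. Of all tested genes, 11.3% were called higher and 10.1% lower in MYC MUT against MYC WT. These shares were 2.15% and 2.98% in SWP against MYC WT, and 12.3% and 8.31% in MYC MUT against SWP. Of 8 further non-keratin genes 7 were tested. In each comparison with MYC WT, none of these was called higher and 1 lower. In MYC MUT against SWP, 1 was called higher and 1 lower. VIM, the most abundant per kb, the lamins LMNA, LMNB1 and LMNB2, which line the nucleus, and the lens filament BFSP1 were not called. SYNM, which cross-links filaments in muscle and glia, was lower in MYC MUT, at -0.66 ± 0.10 against MYC WT (SE, limma adjusted p = 0.000437) and -0.57 against SWP (0.0011), the latter under the fold needed with equal upper quartiles (-0.48). DES, the muscle filament, had 24.6, 16.8 and 27.9 normalized counts in MYC WT, 31.4, 35.0 and 43.8 in MYC MUT and 4.58, 2.97 and 2.31 in SWP. All SWP libraries were lowest, with a log2 fold change of -2.50 ± 0.30 against MYC WT (SE, limma adjusted p = 0.000359). MYC MUT exceeded SWP in DES by 3.16 ± 0.30 (SE, limma adjusted p = 1.40e-05). Of 52 other keratins 26 had reads and 3 were tested. None of these was called in MYC MUT against MYC WT. KRT10, the most abundant, and KRT17 were not called. KRT222, a short keratin-like gene, was lower in SWP, with 38.3 ± 1.66 normalized counts against 78.1 ± 1.10 in MYC WT and 90.1 ± 4.89 in MYC MUT (SD, n = 3), a log2 fold change of -1.01 against MYC WT (limma adjusted p = 0.0013). MYC MUT exceeded SWP in KRT222 by 1.21 (limma adjusted p = 8.58e-05).

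Of 16 genes that anchor filaments to junctions or to one another, 13 could be tested. Against MYC WT, 3 were called higher and 2 lower in MYC MUT, beside 11.3% and 10.1% of all tested genes. In SWP against MYC WT, 1 was called higher and 1 lower, beside 2.15% and 2.98%. EPPK1, a keratin-binding plakin, rose by 1.71 ± 0.25 and PPL, the plakin periplakin, by 0.83 ± 0.27 (SE, limma adjusted p = 0.000345 and 0.0306), while SYNC, a filament-binding coiled-coil protein, fell by 0.67 ± 0.24 (SE, limma adjusted p = 0.0445). In SWP, PKP2, a desmosomal plakophilin, rose by 0.53 and PPL fell by 1.31 (limma adjusted p = 0.000505 and 0.0106), the rise of PKP2 being under the fold needed without replicate 3 of MYC WT (0.49). MYC MUT exceeded SWP in 3, led by PPL at 2.14 and EPPK1 at 1.49, beside 12.3% of all tested genes called higher. DSP, the desmoplakin that ties keratins to desmosomes, was the most abundant and was not called. The rise of PPL and the fall of SYNC in MYC MUT did not pass in 6 and 10 of 22 alternatives.

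Of 16 neuronal cytoskeleton genes outside the filament family 13 were tested, and 6 were called higher and 3 lower in MYC MUT against MYC WT, beside 11.3% and 10.1% of all tested genes. MAP2, a dendritic microtubule protein, rose by 2.04 ± 0.17 and STMN3, a tubulin-binding stathmin, by 1.42 ± 0.07 (SE, limma adjusted p = 7.44e-06 and 1.95e-07). ANK2, a membrane adaptor of axons, fell by 0.68 and the tubulin TUBB2B fell by 0.64 (limma adjusted p = 0.00621 and 0.00355). In SWP, where 2.15% and 2.98% of all tested genes were called higher and lower, only TUBB2B was called, at -0.52 (limma adjusted p = 0.0332), and this call was lost in 12 of 22 alternatives. MYC MUT exceeded SWP in 5 and fell below it in 1, beside 12.3% and 8.31% of all tested genes. The rises were led by MAP2 at 2.27 and the neuronal tubulin TUBB3 at 1.56. The fall was in ANK2 (-0.58), which was not called in 4 of 22 alternatives, 3 of them single libraries left out. Against MYC WT, the fall of ANK2 was under the fold needed without replicate 2 of MYC WT (-0.48). TUBA1A, the most abundant, was higher in MYC MUT by 0.67.

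Markers of the cell types that use these filaments were checked beside them. Of all tested genes, 11.3% were called higher and 10.1% lower in MYC MUT against MYC WT, and 2.15% and 2.98% in SWP against MYC WT. In MYC MUT against SWP these shares were 12.3% and 8.31%. Of 9 neuron markers 6 were tested and 4 called higher in MYC MUT against MYC WT. SNAP25, a synaptic vesicle fusion protein, had 5.18 ± 0.40 normalized counts in MYC WT, 175 ± 16.4 in MYC MUT and 2.74 ± 3.00 in SWP (SD, n = 3), and SYN1, a synaptic vesicle protein, had 26.9 ± 1.22, 121 ± 14.0 and 24.6 ± 9.16. SNAP25 passed the minimum mean only through MYC MUT, so its place among the 4 called is not independent of that filter. In SWP none was called against MYC WT, and ELAVL2, the most abundant, was lower in MYC MUT than in SWP by 0.60. DCX, ELAVL3 and ELAVL4 had at most 7 reads in any library. The summed level of the 9 ranged from 2278 to 2465 normalized counts in the MYC WT libraries, 2438 to 2552 in MYC MUT and 2560 to 2667 in SWP. This sum is not divided by length. Its largest part is ELAVL2, with means of 1592, 1187 and 1797 in MYC WT, MYC MUT and SWP, and SNAP25 and SYN1 are small parts of it.

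Of 8 astrocyte markers besides GFAP 6 passed the minimum. In MYC MUT against MYC WT, ALDH1L1, a folate enzyme of astrocytes, fell by 1.99 ± 0.34 and the glutamate transporter SLC1A3 fell by 0.64 ± 0.17 (SE, limma adjusted p = 0.000864 and 0.0132), the latter not passing without replicate 1 of MYC WT (-0.41). The other glutamate transporter, SLC1A2, had 89 reads in MYC MUT and 8 in MYC WT, a ratio of 10.3 with an exact 95% interval of 5.01 to 24.6, which covers counting error only. SLC1A2 passed the minimum mean only through MYC MUT, with means of 2.74, 28.5 and 6.20 normalized counts in MYC WT, MYC MUT and SWP. None was called in SWP against MYC WT. SOX9, the most abundant, was not called in any comparison, and S100B and FABP7 had at most 11 and 2 reads. The summed level, of which SOX9 was the largest part, ranged from 24741 to 27257 in the MYC WT libraries, 23783 to 26643 in MYC MUT and 22180 to 24377 in SWP. Of 8 neural progenitor markers 6 were tested, with only MSI1 called, lower in MYC MUT than in SWP by 0.65; SOX1 and PROM1 had at most 5 reads. Their sum, most of which is VIM, ranged from 65204 to 74948, from 61473 to 72167 and from 62163 to 67378.

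Of 8 epithelial markers 6 were tested. Against MYC WT, none was called higher and 2 lower in MYC MUT, and 1 higher and 1 lower in SWP. MYC MUT was called above SWP in 2 and below it in none. Of all tested genes the shares called higher and lower were 11.3% and 10.1%, 2.15% and 2.98%, and 12.3% and 8.31%, in this order of comparisons. ESRP2, an epithelial splicing factor, had 77.7 ± 16.5 normalized counts in MYC WT, 37.3 ± 1.44 in MYC MUT and 10.3 ± 3.15 in SWP (SD, n = 3). Its log2 fold change against MYC WT was -1.02 in MYC MUT and -2.83 in SWP (limma adjusted p = 0.00937 and 4.91e-05). In MYC MUT against MYC WT it thus went the other way from KRT8. Against SWP, MYC MUT was higher in ESRP2 by 1.81 (limma adjusted p = 0.000272), the same way as KRT8. The tight junction gene CLDN4 fell by 0.98 in MYC MUT, a call lost in 9 of 22 alternatives, and OCLN, the most abundant marker per kb of these, rose by 0.53 in SWP, a call lost in 3 of 22, among them without replicate 1 of SWP (0.45) or replicate 3 of MYC WT (0.48). CDH1, the epithelial cadherin, was higher in MYC MUT than in SWP by 0.96 (limma adjusted p = 0.0052). The summed level ranged from 1566 to 1864 in the MYC WT libraries, 1934 to 2064 in MYC MUT and 1798 to 1871 in SWP. Of 7 kidney markers 5 were tested. In MYC MUT, 2 were called higher against MYC WT and 3 against SWP, and none was called in SWP against MYC WT. No kidney marker was called lower in any comparison. LHX1 and PAX2, regulators of the embryonic kidney, rose by 0.76 and 0.69 in MYC MUT against MYC WT (limma adjusted p = 0.00606 and 0.046), PAX2 not passing in 8 of 22 alternatives. Against SWP they were higher by 1.20 and 0.82 (limma adjusted p = 0.000354 and 0.0234), PAX2 not passing in 3 of 22. SIX2, the nephron progenitor factor, was the most abundant and was not called, and PAX8 had at most 2 reads. Of 6 markers of blood, endothelium and fibroblasts only COL1A1, a collagen chain, was tested, and it rose by 0.78 in MYC MUT. What part these markers have in the levels of the filament genes was not tested.

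The genes whose profile over the 9 libraries was nearest to that of the 3 members with the widest range of line means as counted were found by Euclidean distance on the log2 scale, after centring, among 16868 genes with a mean of at least 50. Nearest to KRT8 were GALNT9, FBLN2 and SLC16A4 at distances of 0.30, 0.39 and 0.42, beside a range of 2.04 between the line means of KRT8. Nearest to NES were KCNB2, VEGFC and RTN4RL1 at 0.38, 0.44 and 0.48, with a range of 1.80. GFAP had no such near gene, but with 4 to 46 reads per library counting error adds to its distances. The distances to ENSG00000254343, PDE1A and SERPINF1 were 1.25, 1.28 and 1.45, with a range of 1.96.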

How the data were processed

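RNA-seq of MYC WT, MYC MUT and SWP cells was used, 3 libraries each, of the 213 samples listed. The other 204 samples, of other assays, were not analysed here. The authors prepared poly(A)-selected directional libraries, aligned reads to hg38 with bwa mem (BWA 0.7.17-r2188, per the labels), which does not span introns, sorted them, processed duplicates with Picard and counted reads per GENCODE gene. The counting tool and its use of strand are not given in the sources used here. The deposited values are a non-negative signal, the read count of a gene after division by the DESeq2 size factor of its library.

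Reads were recovered from the step of which every value is a multiple (100% whole at a relative tolerance of 1e-06), and served alternatives alone. Differences were tested in R 4.3.3 with limma 3.58.1, using eBayes with a trend, on the scale log2(normalized count + 1), with all 9 libraries fitted together and Benjamini-Hochberg adjustment over 20884 genes. Symbols, exon lengths and positions came from GENCODE release 44 on hg38, which matched 57754 of 58336 identifiers. The exact permutation tests were two-sided. Levels between genes are per kb of merged exon. Depth limits the low genes: at the minimum mean of 10, a library holds about as many reads. Statistics were checked on simulated data.

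Same-numbered libraries had correlations of their deviations from the line means of 0.33, 0.15 and 0.05 for MYC WT with MYC MUT, which were not taken as paired, 0.56, 0.40 and 0.10 for MYC WT with SWP, and 0.33, 0.24 and 0.23 for MYC MUT with SWP. In the latter comparisons every same-numbered pair was over 0.1, so a replicate block was read there as a pairing. Between MYC WT and SWP that pairing is uncertain. Replicate 2 of MYC WT with replicate 3 of SWP gave 0.26 and replicate 3 with replicate 2 gave 0.17, above the 0.10 of replicate 3 with replicate 3. The other differently numbered pairs of these lines were negative. The reading as a pairing comes from the data and not from a stated batch, and the values reported are without the block unless stated.

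Beside the 10 members, the genes named were MYC, from each list the called genes with the 2 largest rises and 2 largest falls per comparison and the most abundant per kb, the pseudogene with most reads, and the 3 nearest profiles. A gene that this rule would name is not reported here. The antisense partners were named for their overlap. The members and lists were chosen with earlier results of these data known. Alternatives were pseudocounts of 0.1 and 10, any count, a minimum mean of 50, equal totals, equal upper quartiles, no trend, only the 2 lines compared, a replicate block, edgeR 4.0.16 and DESeq2 1.42.0 on recovered reads, adjusted p alone, a fold threshold of 1, keratin pseudogene reads added and each library left out. Leaving out replicate 1 of every line was added after seeing the data. Figures were drawn with matplotlib 3.10.9.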

Additional observations from a re-analysis of the deposited data

How the results depend on the processing

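Of 573 repeats of the comparisons of single members under alternatives, 546 kept the call of the reported value, 11 gained a call and 16 lost it, and no called value changed sign. Those in which the call of a member changed with another fit are given beside its values, except that NEFL in SWP against MYC WT was also under the fold needed with equal totals, edgeR and DESeq2 (-0.49 each). Many of the 573 repeats could not move the fold change of a member. Among these were other filters, other thresholds on the same fit, and libraries left out of the line not compared. The total is therefore no measure of how stable the calls are. The number of members called ranged with a library left out from 5 to 7 in MYC MUT against MYC WT, from 3 to 5 in SWP against MYC WT and stayed at 6 in MYC MUT against SWP. With the replicate block these counts were 6, 4 and 7, and of all genes 4970, 1464 and 4773 were called, in place of 4476, 1072 and 4309; of the members the block changed only the call of GFAP in MYC MUT against SWP. Over all genes, leaving out a library gave 3923 to 5102 calls in MYC MUT against MYC WT, 837 to 1329 in SWP against MYC WT and 3785 to 4807 in MYC MUT against SWP, including the setting without replicate 1 of every line. Counts followed the fold threshold by construction. At a threshold of 1, 3 members were called in MYC MUT against MYC WT in place of 6, and 1648, 505 and 1723 of all genes in the 3 comparisons. With the adjusted p alone, 8021, 2083 and 7944 of all genes were called. NEFH and KRT19 were too low for any fit but that of all genes with any count. The 3 libraries per line limit the estimate of the spread, and GFAP, PRPH and NEFH rest on few reads.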
